A study of Sus scrofa with 226 samples.

Results

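PIEZO1, PIEZO2, TMC3, ANO3, TMEM150C, ASIC1 and ASIC3 are 7 genes linked to the sensing of force or acid, and they were followed here through single sensory neurons of the pig. They were chosen by name, as listed genes of mechanotransduction and acid sensing, with earlier results of these data known. All 7 had a row among the 30420 genes of the deposited count table. The table held single neurons from the dorsal root ganglia of 10 WT pigs aged 11 to 20 weeks, patch-clamped after 1, 2 or 3 days in culture, collected whole into a tube and sequenced singly with Smart-Seq2, a full-length method without molecular identifiers. The neurons were divided by the count of OSMR (ENSSSCG00000016851), the oncostatin M receptor gene, into 66 OSMR-high cells (at least 50 CPM, counts scaled to 1000000 per cell) and 160 OSMR-low cells (under 50 CPM). The study set out to find markers of mechano-insensitive C-fibres, and no cell carries such a label, so the classes below are classes of OSMR level only. All cells were WT and cultured, and no strain is given.

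PIEZO1 and PIEZO2 encode large ion channels opened directly by stretch of the membrane, and PIEZO2 is the main channel of light touch and proprioception in mammals. TMC3 belongs to the family of the hair-cell transduction genes TMC1 and TMC2, ANO3 to the anoctamins, and TMEM150C, also called Tentonin 3, has been reported in mouse neurons to shape slowly adapting currents evoked by pressure. ASIC1 and ASIC3 encode sodium channels opened by protons. C-fibres that do not answer to force at rest, called mechano-insensitive or silent, are known from the skin of pigs and humans.

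Total counts per neuron ran between 109726 and 5506278, with a median of 782466 in OSMR-high and 729586 in OSMR-low cells. Each animal gave 1 to 12 OSMR-high and 5 to 28 OSMR-low cells, and animals 3 and 8 gave 1 OSMR-high cell each. To test all genes, the counts of the cells of each animal were added up within a class wherever it had at least 2 cells, which gave 8 OSMR-high and 10 OSMR-low sums with 1484041 to 52564022 counts. Neuron markers (6 of 6 measured) summed to 9321 to 14035 CPM in OSMR-high and 8817 to 12609 CPM in OSMR-low sums, with TUBB3 called higher (0.74 ± 0.17 on the log2 scale) and RBFOX3 lower (-2.76 ± 0.67) in OSMR-high cells. All 6 genes of a fixed OSMR and SST C-fibre list, OSMR itself included, were higher in OSMR-high cells, and 3 of 4 tested peptidergic markers (ADCYAP1, KIT and TRPA1) were lower. The remaining marker, TAC1, had a log2 difference of 0.26 ± 0.19 and did not pass the test. Summed, the peptidergic list overlapped between the classes, with 5615 to 7603 CPM in OSMR-high and 4170 to 10786 CPM in OSMR-low sums. Of other cell types, the Schwann cell list summed to 829 to 1299 CPM in OSMR-high and 406 to 893 CPM in OSMR-low sums, with PMP22 the only one of its 3 tested genes called. The endothelial list reached 521 CPM in 1 OSMR-high sum and 56.9 CPM in OSMR-low sums, and its CLDN5 and PECAM1 were called higher, as was DCN of the fibroblast list, while the other tested genes of the 2 lists, KDR, LUM, COL1A2 and PDGFRA, had log2 differences of -0.74 to -1.88 that did not pass the test. The macrophage list (14.9 to 1259 CPM in OSMR-high and 15.5 to 387 CPM in OSMR-low sums) and the satellite glia list (19.2 to 522 CPM in OSMR-high and 20.7 to 388 CPM in OSMR-low sums) had no called gene. No list had a measured marker at 0 in all sums, and the part of these cells in the results below was not tested.

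TMC3 and ANO3 were higher and ASIC1, ASIC3 and TMEM150C lower in OSMR-high than in OSMR-low neurons, while PIEZO2 did not pass the test and PIEZO1 had too few counts to enter it. Of the 6 genes tested, 2 were thus higher, beside 559 of 18494 genes or 3.02% over the whole table, and 3 were lower, beside 593 genes or 3.21% (edgeR, quasi-likelihood, animals blocked, Benjamini-Hochberg adjusted p under 0.05). Since the genes were chosen with earlier results of these data known, their shares beside those of all genes are a description only. Because the OSMR reads that divide the cells come from the same libraries, the contrast describes which genes go together with OSMR. Where the sums of the classes are said not to overlap, this is a description only. How many of all genes tested have such classes was not counted. Levels are not compared between genes, since no transcript length was at hand.

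**Figure D1:**
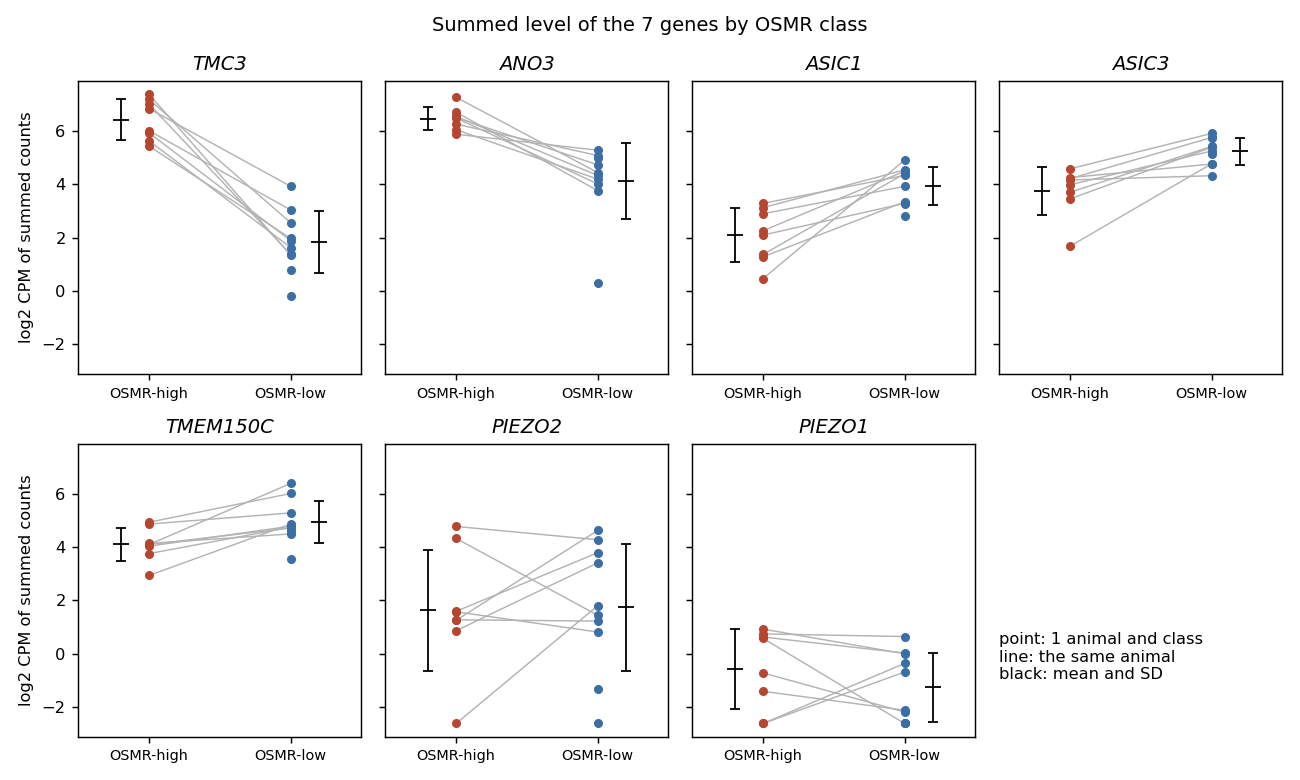
Level of each gene (log2 CPM, prior count 2) in counts summed per animal and OSMR class, with OSMR-high sums (n = 8) left of OSMR-low sums (n = 10); grey lines join the same animal, and black marks give mean and SD. The TMC3 and ANO3 points of the classes do not overlap, whereas those of PIEZO2 and PIEZO1 spread over the same range.

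TMC3 (ENSSSCG00000001789) showed the widest separation of the 7 genes. Its summed level was 5.44 at the lowest, 6.43 at the median and 7.39 at the highest log2 CPM in the 8 OSMR-high sums, against -0.20, 1.76 and 3.93 log2 CPM in the 10 OSMR-low sums. The classes did not overlap, and every one of the 8 animals with both sums had the higher TMC3 level in its OSMR-high sum. The difference was 4.22 ± 0.36 on the log2 scale (SE), an 18.6-fold higher level (edgeR adjusted p = 3.68e-06). It was called under all 24 alternatives, with log2 differences of 3.71 to 4.92.

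In single cells, TMC3 had a count of at least 1 in 65 of 66 OSMR-high cells (98.5%, exact 95% interval from 91.8%) and in 65.6% of 160 OSMR-low cells (57.7 to 72.9%). With every cell thinned to 400000 counts and shallower cells left out, the shares were 98% of the 50 OSMR-high and 51.2% of the OSMR-low cells left. The shares hide a large gap in level, since the OSMR-low cells with a count had a median of 3.23 CPM, against 75 CPM in the OSMR-high cells with a count. At least 50 CPM of TMC3 was reached by 41 OSMR-high and 5 OSMR-low cells. Averaged over cells within animals, the level was 6.03 ± 0.97 in OSMR-high and 1.45 ± 0.55 log2(CPM + 1) in OSMR-low cells (SD, n = 10 animals each), and it was higher in 10 of 10 animals.

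ANO3 (ENSSSCG00000013339), which in rat sensory neurons has been linked to a sodium-activated potassium channel, went the same way with less contrast. Its summed level was 5.89, 6.51 and 7.28 log2 CPM (lowest, median, highest) in OSMR-high sums, against 0.29, 4.39 and 5.29 log2 CPM in OSMR-low sums. The classes again did not overlap, and the lowest value belonged to animal 8, whose OSMR-low sum held 5 cells and 3 ANO3 counts. The difference was 1.99 ± 0.26 on the log2 scale or 3.98-fold (edgeR adjusted p = 1.59e-04), higher in 8 of 8 animals and called under all 24 alternatives (1.77 to 2.89). ANO3 was less restricted than TMC3 in single cells: 63 of 66 OSMR-high cells (95.5%, exact 95% interval 87.3 to 99.1%) and 69.4% of 160 OSMR-low cells (61.6 to 76.4%) had a count, and 41 OSMR-high and 21 OSMR-low cells reached 50 CPM. Thinned to the same depth, the shares were 98% in OSMR-high and 61.8% in OSMR-low cells.

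The cells were divided here into 6 blocks of consecutive cell numbers, cut at the gaps in the numbers and once within each of the 2 longest stretches; the labels give the numbers no meaning. Within the blocks, the mean TMC3 level was higher in OSMR-high cells by 3.40 to 6.35 and that of ANO3 by 2.06 to 4.22 on the log2(CPM + 1) scale, in 6 of 6 blocks each.

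ASIC1 (ENSSSCG00000000216) and ASIC3 (ENSSSCG00000027024), the proton-gated channel genes, were both lower in OSMR-high cells. ASIC1 had summed levels of 0.46, 2.18 and 3.29 log2 CPM (lowest, median, highest) in OSMR-high sums, against 2.80, 4.13 and 4.92 log2 CPM in OSMR-low sums. The ranges met between 2.80 and 3.29 log2 CPM, yet within each of the 8 animals the OSMR-high sum was the lower one, by 1.03 to 4.45. The fitted difference was -1.99 ± 0.36 on the log2 scale, a 3.98-fold lower level (edgeR adjusted p = 0.00282). A count was present in 32 of 66 OSMR-high cells (48.5%) and in 63.1% of 160 OSMR-low cells, or in 44% of OSMR-high and 63.4% of OSMR-low cells after thinning, and at least 50 CPM in 0 OSMR-high and 14 OSMR-low cells.

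ASIC3 had summed levels of 1.68, 4.08 and 4.59 log2 CPM in OSMR-high sums, against 4.33, 5.33 and 5.92 log2 CPM in OSMR-low sums. The ranges overlapped narrowly, and the OSMR-high sum was lower in 8 of 8 animals, by 0.16 to 3.10. The difference was -1.40 ± 0.27 on the log2 scale, 2.64-fold lower (edgeR adjusted p = 0.00493). Detection did not separate the classes, with a count in 77.3% of OSMR-high and 75.6% of OSMR-low cells, and the classes differed in how many cells were high: 5 OSMR-high and 44 OSMR-low cells reached 50 CPM. Neither call held in every setting. With 1 day in culture only, the adjusted p was 0.225 for ASIC1 and 0.267 for ASIC3, with an OSMR threshold of 25 CPM it was 0.0816 for ASIC1 and 0.136 for ASIC3, and with limma on the mean log2(CPM + 1) of cells ASIC3 had 0.0850. Within the 6 blocks, ASIC1 was lower in OSMR-high cells in 5 and ASIC3 in 4.

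TMEM150C (ENSSSCG00000026729) was also lower, by the smallest margin of the called genes. Its summed level was 2.94, 4.10 and 4.94 log2 CPM in OSMR-high sums, against 3.55, 4.77 and 6.40 log2 CPM in OSMR-low sums. Most of the 2 ranges overlapped, but the OSMR-high sum was lower in 8 of 8 animals, and the difference was -1.04 ± 0.25 on the log2 scale, 2.06-fold lower (edgeR adjusted p = 0.0189). The call lay near the threshold. The log2 difference was -0.90 without animal 1 (edgeR adjusted p = 0.0530), -1.02 without animal 4 (0.0573), -0.93 without the animal block (0.125) and -1.24 with 1 day in culture only (0.191), and at an OSMR threshold of 25 CPM the adjusted p was 0.0860. The highest OSMR-low sum, that of animal 6, drew 79% of its TMEM150C counts from 1 of 28 cells, and without animal 6 the difference was -0.85 (adjusted p = 0.0487). As a mean over cells, TMEM150C was lower in 7 of 10 animals (3.38 ± 0.79 in OSMR-high and 3.90 ± 0.62 log2(CPM + 1) in OSMR-low cells, SD, n = 10 animals each; adjusted p = 0.196 with limma). Within the 6 blocks it was lower in OSMR-high cells in 4. A count was present in 86.4% of OSMR-high and 86.2% of OSMR-low cells.

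PIEZO2 (ENSSSCG00000034765) was detected in a minority of cells of both classes. A count was present in 21 of 66 OSMR-high cells (31.8%, exact 95% interval 20.9 to 44.4%) and in 56 of 160 OSMR-low cells (35%, 27.6 to 42.9%), and 3 OSMR-high and 7 OSMR-low cells reached 50 CPM. The summed level was -2.63, 1.42 and 4.78 log2 CPM in OSMR-high sums, against -2.63, 1.62 and 4.63 log2 CPM in OSMR-low sums, where -2.63 is the value of a sum with 0 counts. The ranges coincided, and 4 animals had the higher and 4 the lower level in the OSMR-high sum. The difference of -0.88 ± 0.71 on the log2 scale did not pass the test (edgeR adjusted p = 0.598). The sums turned on few cells, since 1 cell supplied a median of 58.3% of the PIEZO2 counts in OSMR-high and 47.4% in OSMR-low sums.

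PIEZO1 (ENSSSCG00000035230) was the scarcest of the 7 genes in number of cells. It had a count in 16 of 66 OSMR-high cells (24.2%, exact 95% interval 14.5 to 36.4%) and in 20 of 160 OSMR-low cells (12.5%, 7.81 to 18.6%), or in 16% of OSMR-high and 11.4% of OSMR-low cells after thinning. No cell reached 50 CPM, and the highest cells had 15.4 CPM among OSMR-high and 34.8 CPM among OSMR-low cells. PIEZO1 did not pass the filter on low counts. Averaged over cells within animals, its level was 0.49 ± 0.49 in OSMR-high and 0.23 ± 0.24 log2(CPM + 1) in OSMR-low cells (SD, n = 10 animals each), a difference within the spread between animals (two-sided exact sign-flip permutation test, p = 0.168, where 0.00195 is the smallest p that 10 animals allow).

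**Figure D2:**
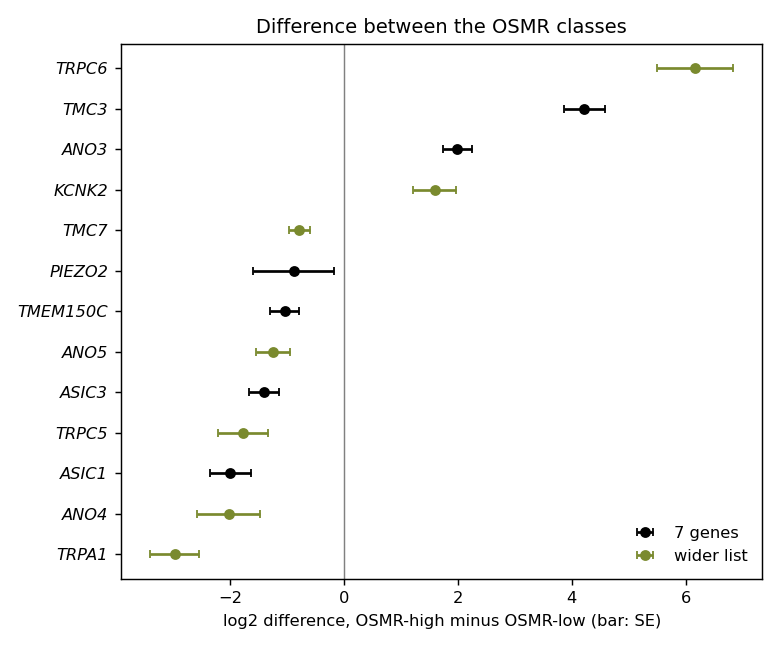
Log2 difference between OSMR-high and OSMR-low sums (edgeR, bar: SE) for the 6 tested genes of the 7 (black) and for 7 called genes of a wider list of mechanosensitive channels and regulators (green). TMC3 and ANO3 lie right of 0 with TRPC6 and KCNK2, and ASIC1, ASIC3 and TMEM150C lie left of 0 among 5 genes of the wider list.

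The other channels and regulators of the same functions were given by 2 wider lists. Of 45 mechanosensitive channels and their regulators, 33 were tested, and 3 were higher and 5 lower in OSMR-high cells, so that 24.2% of the tested list was called, beside 6.23% of all genes tested. The list, too, was drawn up with earlier results of these data known, and its share is a description only. The median log2 difference was 0.12 in the list and -0.04 over all genes. TRPC6, a cation channel of the TRPC family, differed by 6.16 ± 0.67 on the log2 scale (edgeR adjusted p = 3.98e-05). Its summed level was 4.20 to 6.17 log2 CPM in OSMR-high and -2.63 to 2.48 log2 CPM in OSMR-low sums, without overlap. KCNK2, the potassium channel TREK-1, was higher by 1.59 ± 0.38 (adjusted p = 0.0179). TRPA1, the irritant receptor channel and also a marker of the peptidergic list, was lower at -2.97 ± 0.43 (adjusted p = 4.62e-04), with 2.14 to 4.42 log2 CPM in OSMR-high and 5.23 to 8.76 log2 CPM in OSMR-low sums.

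Other called genes of the list included relatives of TMC3 and ANO3. ANO4 (-2.02 ± 0.55) and ANO5 (-1.25 ± 0.30), both anoctamins like ANO3, were lower, and so was TMC7 (-0.78 ± 0.19), of the same family as TMC3, as well as TRPC5 (-1.77 ± 0.44), with edgeR adjusted p between 0.0187 and 0.0394 for these 4. TMC6, too low in level to be named by the rule and picked out after its values were seen, was the third gene called higher, at 4.01 ± 0.80 on the log2 scale. Of 22 acid-sensing genes, 9 were tested. ASIC2, a further proton-gated subunit, had a log2 difference of 0.75 ± 0.35 (edgeR adjusted p = 0.269) and TRPV1, the capsaicin receptor, 1.23 ± 0.36 (adjusted p = 0.0565), and neither passed the test.

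The OSMR-low class was not uniform. Of its 160 cells, 19 were under 50 CPM of ADCYAP1 and the others held at least 50 CPM of ADCYAP1, the gene of the peptide PACAP. TMC3 averaged 1.37 ± 0.51 log2(CPM + 1) in the ADCYAP1-carrying cells (SD, n = 10 animals) and 2.21 ± 1.52 in the cells with neither gene (n = 6 animals with at least 2 such cells), both far below the OSMR-high cells. ANO3 averaged 2.55 ± 0.79 in ADCYAP1-carrying cells and 3.23 ± 1.45 in cells with neither. ASIC3 averaged 4.12 ± 1.03 in ADCYAP1-carrying cells and 2.26 ± 2.02 in cells with neither, where it was found in 9 of 19 cells. The cells with neither gene were shallower (median 532610 counts, against 746006 in ADCYAP1-carrying cells), and differences between the 2 sets were not tested.

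TRPM8, the cold and menthol receptor gene, was at 50 CPM or more in 29 OSMR-low cells. In the 8 animals with at least 2 OSMR-low cells with and without TRPM8, PIEZO2 averaged 1.86 ± 1.07 log2(CPM + 1) in the TRPM8-carrying cells and 0.90 ± 0.50 in the others (SD), and it was higher in 7 animals and lower in 1. ASIC1 averaged 2.95 ± 1.31 with and 2.12 ± 0.64 without TRPM8 and was higher in 6 of 8 animals. ASIC3 averaged 4.23 ± 1.47 with and 3.51 ± 1.06 without TRPM8 and was higher in 7 of 8. TMC3 averaged 1.38 ± 0.77 with and 1.72 ± 0.55 without TRPM8, and ANO3 2.80 ± 1.47 with and 2.79 ± 0.77 without, higher in 4 and 3 of 8 animals. These values are descriptions without a test.

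Cells just above the OSMR threshold had TMC3 and ANO3 levels between those of the cells around them. The highest OSMR level in the OSMR-low class was 47.9 CPM and the lowest in the OSMR-high class 50.3 CPM. The 9 cells between 50 and 100 CPM of OSMR had a median TMC3 level of 2.63 and a median ANO3 level of 4.18 log2(CPM + 1). In the 57 cells above 100 CPM the medians were 6.52 for TMC3 and 6.38 for ANO3. The 18 cells between 25 and 50 CPM had 2.01 and 3.83, so the medians of the 9 cells just inside the threshold lay nearer to those just outside it than to the rest of their class.

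**Figure D3:**
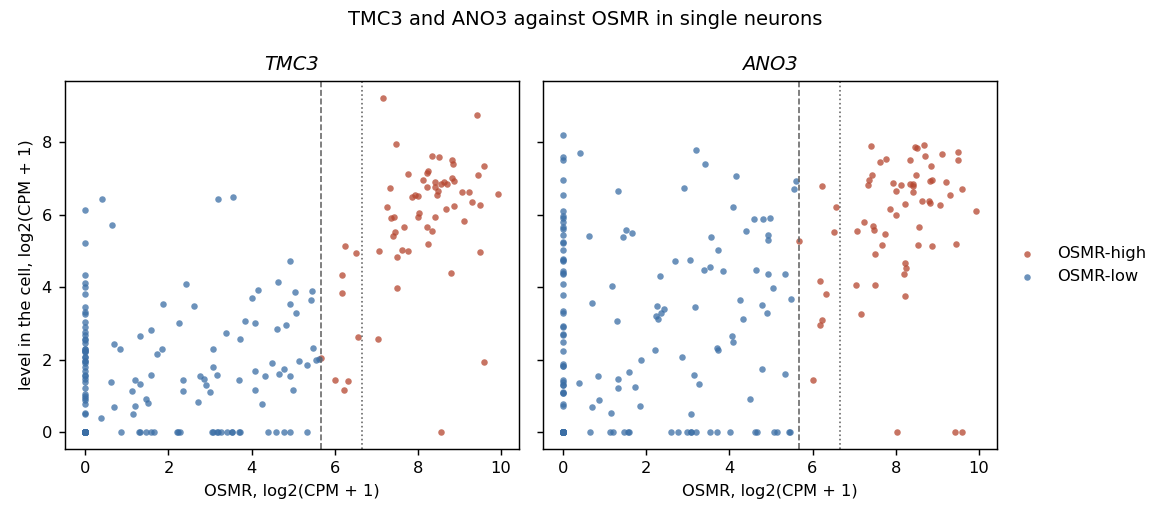
Level of TMC3 (left) and ANO3 (right) in each neuron against OSMR, all as log2(CPM + 1); the dashed line marks 50 CPM of OSMR and the dotted line 100 CPM. Above 100 CPM of OSMR most cells have high TMC3 and ANO3, and between the lines 9 OSMR-high cells have a median TMC3 level of 2.63.

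Each neuron also had recorded values, which allowed the 7 genes to be set against the behaviour of the cell. Columns named for 20, 50 and 100 Hz run between 0 and 20, and 375 columns named ADS, an abbreviation often used for activity-dependent slowing, cover 5 quantities over 75 pulses. The table defines none of them and gives no units. Levels and recorded values were ranked, ranks were centred within animals, and their correlation is given as a description without a p, since cells share animal, block and depth. The Hz values were present in all 66 OSMR-high cells and all but 1 of the OSMR-low cells, and the ADS values were missing in 19 OSMR-high and 31 OSMR-low cells. Those were all cells of animals 1, 2 and 3, the pigs of 11 and 12 weeks, and an OSMR-low cell of animal 4. Every correlation with an ADS column, also over all cells, thus leaves out these youngest pigs, whereas the Hz correlations include them.

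The OSMR-high cells had the lower Hz values, with medians of 10, 4 and 2 at 20, 50 and 100 Hz, against 20, 16 and 7 in OSMR-low cells. At 20 Hz, 27.3% of OSMR-high and 83% of OSMR-low cells sat at the highest value of 20, which limits any ranking among OSMR-low cells. Over all cells, TMC3 and ANO3 had rank correlations of -0.50 and -0.48 with the 50 Hz value, and 0.52 each with the first pulse of the quantity named ADS_RT_ABS, while the other 5 genes lay between -0.08 and 0.08 at 50 Hz and between -0.15 and 0.08 for that pulse. Of the 18494 genes, 1.75% had a correlation of -0.3 or lower with the 50 Hz value and 1.82% one of 0.3 or higher with the first ADS_RT_ABS pulse. OSMR itself, which divides the classes, had -0.47 and 0.48.

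Within the OSMR-high cells, ANO3 had the strongest correlations of the 7 genes at 20 and 50 Hz. Its rank correlation was -0.54 with the 20 Hz, -0.51 with the 50 Hz and -0.33 with the 100 Hz value (n = 66 cells), and 2 of 18494 genes had a lower value at 20 Hz and 13 at 50 Hz. TMC3 had -0.31, -0.34 and -0.38, values that 3.84%, 3.09% and 0.822% of genes passed. In this class 5.39% of genes were at -0.3 or lower with the 50 Hz value. Taken animal by animal, in the 5 animals with at least 8 OSMR-high cells, the 50 Hz correlation averaged -0.45 ± 0.35 for ANO3 and -0.27 ± 0.28 for TMC3 (SD), negative in 4 and positive in 1 animal for each gene. The total count of the cell had -0.27, -0.29 and -0.17 with the same 3 values and 0.35 with the first ADS_RT_ABS pulse, and its part in these correlations was not tested. Restricted to cells with at least 500000 counts, ANO3 had -0.38 and TMC3 -0.33 at 50 Hz.

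The ADS columns were next compared in OSMR-high cells (n = 47). ANO3 had 0.46 to 0.51 over the 75 pulses of ADS_RT_ABS and TMC3 0.30 to 0.35, beside 5.27% of genes at 0.3 or higher for the first pulse. The pulses come from the same cells, and only 3 animals had at least 8 of them: over these, the first pulse averaged 0.34 ± 0.53 for ANO3, positive in 2 and negative in 1, and 0.26 ± 0.24 for TMC3, positive in 3 (SD). Both genes were negative with all 74 varying pulses of the ADS slope (medians -0.38 for ANO3 and -0.40 for TMC3) and of the ADS peak (-0.45 and -0.44). OSMR itself (medians -0.28 and -0.29) and the total count of the cell (-0.23 and -0.20) were negative with all of them too. At pulse 75 of the slope, 5.92% of genes were at -0.3 or lower. Over the same 3 animals, that pulse averaged -0.36 ± 0.12 for ANO3, negative in 3 (SD). For TMC3 it averaged -0.23 ± 0.27, negative in 2 and positive in 1. The peak at pulse 75 averaged -0.30 for both genes (SD 0.26 and 0.37), with the same counts of signs. TMEM150C and PIEZO2 were positive with all 74 varying pulses of slope and peak, with slope medians of 0.27 and 0.22 and peak medians of 0.19 and 0.18. Over the same 3 animals at pulse 75, TMEM150C averaged 0.32 for slope and peak (SD 0.26 and 0.30), positive in 3. PIEZO2 averaged 0.16 ± 0.32 for the slope and 0.13 ± 0.20 for the peak, each positive in 2 and negative in 1. ASIC1 and ASIC3 stayed near 0, with slope medians of -0.06 and -0.03.

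The correlations of TMC3 and ANO3 inside the OSMR-high class depended on the threshold. With the threshold at 100 CPM, which leaves 57 cells, TMC3 had -0.06, -0.08 and -0.18 with the 3 Hz values and -0.02 with the first ADS_RT_ABS pulse. ANO3 had -0.40, -0.35, -0.14 and 0.16 in the same cells. The 9 cells between 50 and 100 CPM of OSMR had median values of 20, 20 and 10 at 20, 50 and 100 Hz, against 9, 3 and 2 in the cells above 100 CPM. Most of the 9 cells also held at least 50 CPM of ADCYAP1, and so did some of the cells above 100 CPM of OSMR. The OSMR-high class was thus not uniform either, and the part of ADCYAP1 in its correlations was not tested.

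Among OSMR-low cells none of the 7 genes passed -0.25 with a Hz value or 0.28 with the first ADS_RT_ABS pulse. ANO3 had -0.17, -0.24 and -0.24 with the 3 Hz values and 0.28 with the first ADS_RT_ABS pulse. Only 0.0324% of genes were at -0.3 or lower at 50 Hz and 0.0649% at 0.3 or higher for that pulse, and 65 and 21 genes lay further out than ANO3. Animal by animal, ANO3 averaged 0.33 ± 0.17 with the pulse and was positive in 6 of 6 animals with at least 8 such cells. TMC3 had -0.10, -0.19 and -0.25 with the Hz values, and -0.05, -0.08 and -0.11 among the ADCYAP1-carrying cells alone. PIEZO2 had -0.17, -0.19 and -0.11. ASIC3 had the strongest correlation of the 7 with the ADS slope here, with a median of -0.28 over 74 pulses, all negative, against -0.13 for ANO3, and a median of 0.23 with the quantity named RMP.

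**Figure D4:**
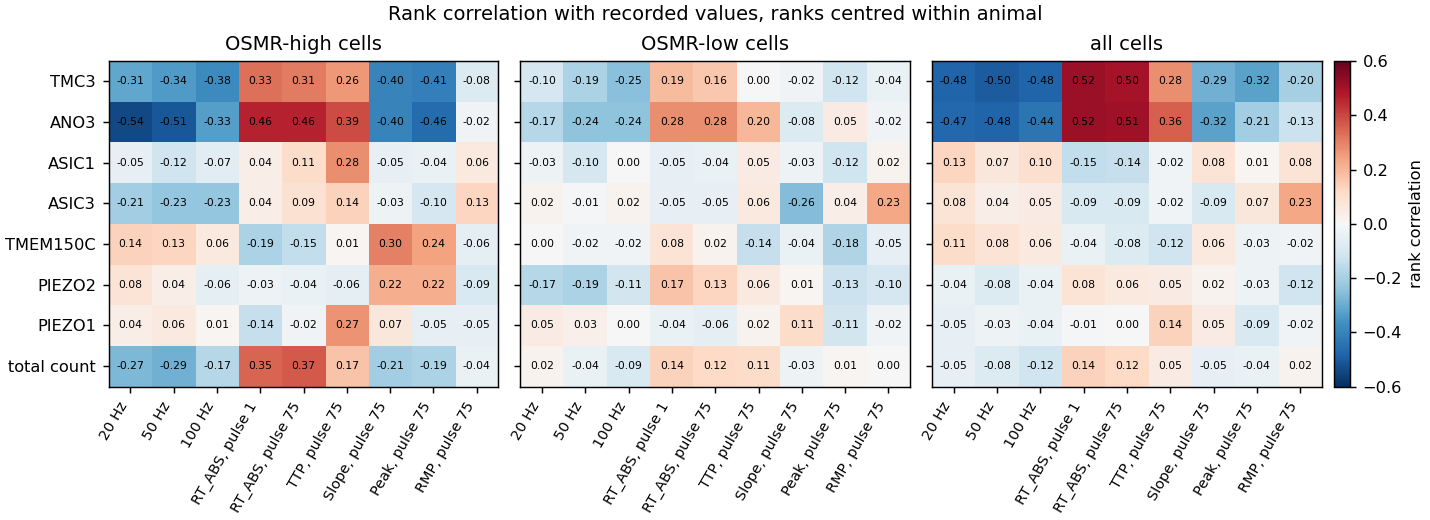
Rank correlation of each gene, and of the total count per cell, with recorded values in OSMR-high cells (66 cells, 47 for the pulse columns), OSMR-low cells and all cells, with ranks centred within animals. The pulse columns hold no cell of animals 1, 2 and 3. Over all cells the values beyond 0.4 in size belong to TMC3 and ANO3, and within OSMR-high cells ANO3 reaches -0.54 at 20 Hz.

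Cell size went with the same 2 genes, and with OSMR itself. Over all cells TMC3 had a rank correlation of 0.41 with the recorded diameter and 0.46 with the column named cslow, and ANO3 had 0.39 and 0.46. OSMR, which divides the classes, had 0.35 and 0.40. Within OSMR-high cells TMC3 had 0.35 and 0.28, ANO3 0.13 and 0.40, and the total count of the cell 0.14 and 0.37. Animal by animal, the OSMR-high correlation with cslow averaged 0.17 ± 0.35 for TMC3 and 0.16 ± 0.38 for ANO3 (SD), each positive in 3 and negative in 2 of 5 animals, and that with diameter 0.15 ± 0.48 for TMC3 and -0.04 ± 0.36 for ANO3. Within OSMR-low cells both values were 0.16 for TMC3 and 0.27 for ANO3. The median diameter was 42.3 in OSMR-high and 34.5 in OSMR-low cells, in the unit of the table, which is not given.

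The 7 genes were also set against each other. TMC3 and ANO3 had a rank correlation of 0.43 over all cells, 0.30 within OSMR-high and 0.08 within OSMR-low cells. ASIC1 and ASIC3 had 0.37 over all cells, with 0.36 in OSMR-high and 0.30 in OSMR-low cells. ASIC3 and TMEM150C had 0.32 over all, 0.38 in OSMR-high and 0.25 in OSMR-low cells. ASIC3 had 0.29 and TMEM150C 0.25 with the total count of the cell, a measure these pairs share. PIEZO1 lay between -0.14 and 0.13 with the other 6 genes in all 3 sets.

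The genes whose levels most resembled each of the 7 across all cells were taken from 11138 tested genes with a symbol. TMC3 was most like KLHL14 (rank correlation 0.64), TMEM45B (0.63) and SLC5A7 (0.63), and ANO3 most like SCN2A (0.57), CYB5R3 (0.55) and GABRA5 (0.55). OSMR itself had 0.63 with TMC3 and 0.49 with ANO3 over all cells. None of the genes named here for TMC3 and ANO3 was among the 3 closest to them within either OSMR class. The part of the class difference in these values was not tested. RNF157 (0.58) and TSPAN7 (0.56) were among the 3 genes most like ASIC3, and ASIC1 was most like CKB (0.45), GARNL3 (0.44) and RNF157 (0.44). TMEM150C had CYRIA (0.44), LTBP1 (0.42) and ASCC3 (0.41), and PIEZO2 had PPM1E (0.41), NDP (0.40) and SLC17A7 (0.39). PIEZO1 was found in too few cells for this.

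With edgeR, none of the 7 genes passed the test for days in culture, while DESeq2 called PIEZO2 higher at day 3 than at day 1. Sums per animal and day held at least 3 cells (9 sums at day 1, 8 at day 2, 3 at day 3) and were fitted over 20267 genes with animals blocked. At day 2 against day 1, 0 genes were called, or 0%, with 755 genes at an unadjusted p under 0.05 and 16 higher and 6 lower with DESeq2. At day 3 against day 1, 1 gene was called, or 0.00493%, with 304 higher and 392 lower in DESeq2. PIEZO2 differed most of the 7. Its summed level was -1.39, 2.56 and 3.27 log2 CPM at day 1 (lowest, median, highest), -0.92, 1.58 and 2.68 at day 2, and 3.82, 5.20 and 5.54 at day 3.

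All 3 sums of day 3 lay above all those of the earlier days, a difference to day 1 of 2.48 ± 0.61 on the log2 scale (edgeR adjusted p = 0.230, unadjusted p = 0.00119; DESeq2 adjusted p = 0.00995). Single cells carried those sums: 1 cell gave 91.8% of the PIEZO2 counts in animal 2, 54.7% in animal 4 and 77.6% in animal 7. Averaged over cells instead, PIEZO2 was 1.95 ± 0.34 at day 3 and 1.59 ± 0.58 log2(CPM + 1) at day 1 in those animals (SD, n = 3), higher in 2 and lower in 1. TMEM150C had 1.24 ± 0.58 on the log2 scale at day 3 against day 1 (edgeR adjusted p = 0.389). Averaged over cells, it differed by 0.05 ± 0.75 log2(CPM + 1), higher in 1 and lower in 2 animals (SD, n = 3). TMC3, ANO3, ASIC1 and ASIC3 had log2 differences between -0.43 and 0.39 in the sums at day 3, and PIEZO1 -0.90 ± 1.52. Averaged over cells, ASIC1 differed by -0.82 ± 1.21, lower in 3 of 3 animals. ASIC3 differed by -1.33 ± 1.80, lower in 2 and higher in 1, so sums and cell averages did not give the same picture.

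**Figure D5:**
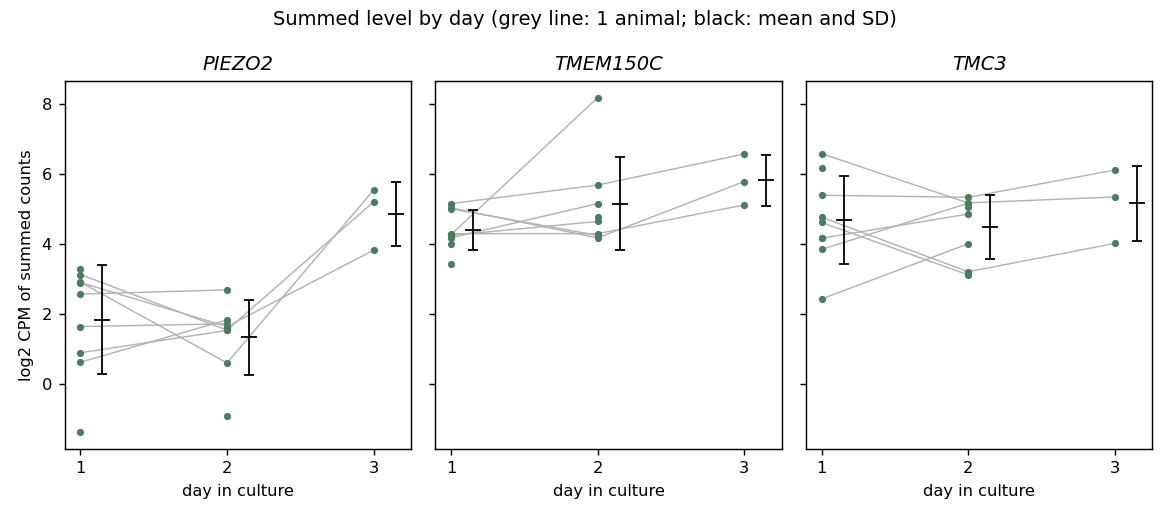
Level of PIEZO2, TMEM150C and TMC3 (log2 CPM of counts summed per animal and day) after 1, 2 and 3 days in culture, with grey lines for animals and black marks for mean and SD (9, 8 and 3 sums). PIEZO2 lies between 3.82 and 5.54 at day 3, above all earlier sums, and TMC3 shows no such step.

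Age entered as a weekly slope, fitted over the 9 animals with at least 3 cells at day 1. Of 19731 genes 0 were called, or 0%, by edgeR, with 1224 at an unadjusted p under 0.05 and 36 higher and 17 lower by DESeq2. ANO3 had the steepest slope relative to its error, -0.19 ± 0.06 log2 units per week (edgeR unadjusted p = 0.00684, adjusted p = 0.743). The 2 animals of 18 weeks had 5.06 and 4.67 log2 CPM of ANO3, against 6.68 and 5.78 log2 CPM in the 2 animals of 11 weeks, and the lowest of the 9 sums, 4.24 log2 CPM, came from an animal of 15 weeks. OSMR-high cells made up 3 of 8 and 0 of 6 cells in the sums of 18 weeks, against 6 of 11 and 6 of 15 cells in those of 11 weeks. Among OSMR-low cells alone the slope was -0.18 ± 0.09 (edgeR adjusted p = 0.954). The slopes of the other 5 genes tested lay between -0.12 and 0.07 per week with adjusted p of 0.95 or more, and PIEZO1 did not pass the filter.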

How the data were processed

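The deposited table holds estimated counts per gene and cell, made by the authors. Of its values above 0, 52.1% are not whole. Base calling used bcl2fastq 2.20, per the submitters' processing notes; no aligner, counting tool or genome build is named there or in the labels, and these stay not given in the sources used here. Smart-Seq2 keeps no strand, so reads of overlapping genes cannot be told apart. The authors' deposited cell table gave animal and recorded values in units it does not state; its 43 lines that match no sample were not used. Gene IDs were paired with symbols through a RefSeq-derived name table (14867 of 30420).

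The members, lists and thresholds were chosen with earlier results of these data known. CPM were computed from all counts of a cell. The estimated counts of an animal's cells were added up within each class (2 or more cells), each day or, at day 1, for age (3 or more cells), rounded, filtered with filterByExpr, scaled with TMM and tested with edgeR 4.0.16 (R 4.3.3), with Benjamini-Hochberg adjustment over all genes tested and a threshold of 0.05; SE is the log2 difference divided by the square root of F. The animal was the block because it lies on both sides of the contrast. Alternatives used DESeq2 1.42.0 and limma 3.58.1. Rank correlations used ranks centred within animals (Python 3.11.15, scipy 1.17.1); an animal with 1 cell in a class adds nothing to them. Both steps were tested on simulated data. The exact intervals on shares of cells treat the cells of a class as independent, although cells of 1 animal are not replicates. They leave out the spread between animals. Reads without molecular identifiers are also not independent molecules. Named beyond the 7 genes were the called genes of the wider lists (up to 8 per direction, mean log2 CPM of at least 2) and the 3 most similar genes for each member with a count in at least 20% of cells. Some genes that this rule names are not reported here.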

Additional observations from a re-analysis of the deposited data

Results flagged for a closer look

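Of 28 groups of 8 to 10 sums of the 7 genes, 3 held a sum far from the others. The groups share cells and animals, so a nominal chance rate of about 1 in 20 need not hold. An excess over chance was not tested. ANO3 in the OSMR-low sum of animal 8 was 0.29 log2 CPM, where the nearest of the 10 sums had 3.77; it rested on 5 cells. TMEM150C at day 2 in animal 6 was 8.18 log2 CPM, where the nearest of 8 sums had 5.68; 1 of its 6 cells gave 95.9% of the counts, at 644 CPM. ASIC3 in the OSMR-high sum of animal 6 was 1.68 log2 CPM, where the nearest of 8 sums had 3.46; it rested on 3 cells and 5 counts.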

How the results depend on the processing

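The direction of the 5 called genes of the 7 was kept under all alternatives run; TMC3 and ANO3 stayed past the threshold in 24 of 24, ASIC1 in 22, ASIC3 in 21 and TMEM150C in 18. The 1152 genes called between OSMR classes became 1955 with DESeq2, 400 at an OSMR threshold of 25 CPM, 1738 at 100 CPM and 530 with only 1 day in culture. With limma on mean log2(CPM + 1) the split was 732 higher and 306 lower, against 559 and 593. Without the animal block 932 genes were called, and with 1 animal left out 800 to 1149. Leaving out TRPM8-carrying cells (1098) or cells under 500000 counts (987), both added after seeing the data, moved no call of the 7 genes, nor did leaving out cells high in macrophage markers (1118). DESeq2 called 22 genes for day 2 against day 1, 696 for day 3 against day 1 and 53 for age. For day 3, 40 genes were called without the animal block, 3 without a filter on low counts, 0 among OSMR-low cells and 0 to 1 with 1 animal left out, 0 without animal 4, 5, 7, 9 or 10. The causes were not tested. Counts limit PIEZO1 and PIEZO2, found in a minority of cells of both classes, and also ASIC1 in OSMR-high cells. For these a sum can rest largely on 1 cell. The OSMR classes are cut from a measured level, and 9 cells lie between 50 and 100 CPM.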
